A study of Homo sapiens with 12 samples.

Results

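The 44 genes described here encode the KMT2A histone methyltransferase complex, fusion partners of KMT2A, Polycomb proteins and other enzymes and readers of chromatin. They were picked by gene symbol from the 61906 genes counted in each of 2 RNA-seq experiments on MOLM-14 cells. MOLM-14 is a human acute myeloid leukemia line that carries a KMT2A-MLLT3 fusion and an internal tandem duplication of FLT3. In the knockdown experiment, cells transduced by lentivirus with an shRNA against DDX5, an RNA helicase (shDDX5), were compared with cells that received a control shRNA (shControl), both 96 hours after infection. In the compound experiment, cells given 100 nM RX-5902, a small molecule said to target phosphorylated DDX5, were compared with cells given 0.1% DMSO, both for 6 hours. There were 3 libraries per group for the 4 groups, labelled as biological replicates. All groups are the same line, and the knockdown rests on 1 named shRNA with no rescue of DDX5, so effects of that shRNA outside DDX5 and loss of DDX5 cannot be told apart.

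KMT2A belongs to a family of enzymes that methylate lysine 4 of histone H3 at promoters and enhancers, working with the shared subunits WDR5, RBBP5 and ASH2L. In leukemias with a KMT2A rearrangement, the fusion protein keeps the DNA-binding part of KMT2A, is held on chromatin through menin, and recruits elongation factors and the histone H3 lysine 79 methyltransferase DOT1L to genes such as HOXA9 and MEIS1. Polycomb repressive complex 2 methylates lysine 27 of histone H3 and opposes this activity, and DNA methyltransferases, histone deacetylases, acetyltransferases and remodelling complexes set the state of the same genes. Reads were counted per gene, so reads from the KMT2A-MLLT3 fusion transcript fall partly on KMT2A and partly on MLLT3, and intact and fused transcripts cannot be told apart.

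DDX5 itself had 159, 164 and 161 CPM (counts scaled to the library total, with TMM factors) in shDDX5 replicates 1, 2 and 3, against 755, 718 and 730 CPM in shControl. It was 4.55-fold lower with the knockdown (log2 fold change -2.19, SE 0.08, n = 3 each, edgeR adjusted p = 3.44e-06) and 1.24-fold higher with RX-5902 (log2 fold change 0.31, SE 0.04, edgeR adjusted p = 1.47e-08). Library totals were 17603589 to 19674098 counts for shDDX5 and shControl and 20264250 to 20367575 for RX-5902 and DMSO. Myeloid identity genes were present in every group: SPI1 averaged 170 CPM in shDDX5, 132 in shControl, 153 in RX-5902 and 120 in DMSO, and CD33 119, 63.4, 51.8 and 62.8 CPM in the same order, while KIT and ANPEP were under 0.1 CPM throughout. Among markers of other cells, the sums over 8 B cell genes reached at most 7.77 CPM and those over 8 erythroid and megakaryocyte genes at most 5.67 CPM, with MS4A1, CR2, HBA1, HBB, HBG1 and PF4 at 0 counts in all 12 libraries. The 8 T and NK cell genes summed to 58.3 to 70.7 CPM in shDDX5, 72 to 79.2 in shControl, 156 to 164 in RX-5902 and 160 to 170 in DMSO, nearly all of it from NCAM1 and GNLY, with CD3G at 0. The 8 epithelial and packaging cell genes summed to 7.36 to 8.92 CPM in shDDX5, 10.2 to 11.4 in shControl, 18.2 to 20.8 in RX-5902 and 4.31 to 5.36 in DMSO, mainly from L1CAM and KRT8, with EPCAM and CDH1 under 0.02 CPM.

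One library stood apart and touches many of the genes below. The chi-square per gene between shDDX5 replicate 1 and replicates 2 and 3 was 52.5 and 52.7, against 1.76 to 6.62 for every other pair of replicates. Genes with at least 10000 exon bases took 13.6% of the counts in shDDX5 replicate 1, 17.8% and 17.7% in replicates 2 and 3, and 18.2 to 18.5% in shControl. Chromatin genes are long: the median exon length was 10953 bases over the 43 members tested and 4723 bases over all genes tested in the knockdown experiment. In replicate 1, 34 of 43 members were lower than the mean of replicates 2 and 3, with a median difference of -0.39 in log2 CPM and a range of -1.84 for KMT2D to 0.50 for MLLT3. Replicates 2 and 3 differed from each other by at most 0.19 for any member. The difference of replicate 1 ran with exon length (Spearman's rho -0.72 over 43 members and -0.38 over 14463 genes, a description across genes that share the same libraries). Knockdown counts of genes, and the values of many members, are therefore given with all 3 shDDX5 libraries and again without replicate 1, where 2 shDDX5 libraries remain. The part of RNA length in those results was not tested beyond this and the length correction given at the end.

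**Figure D1:**
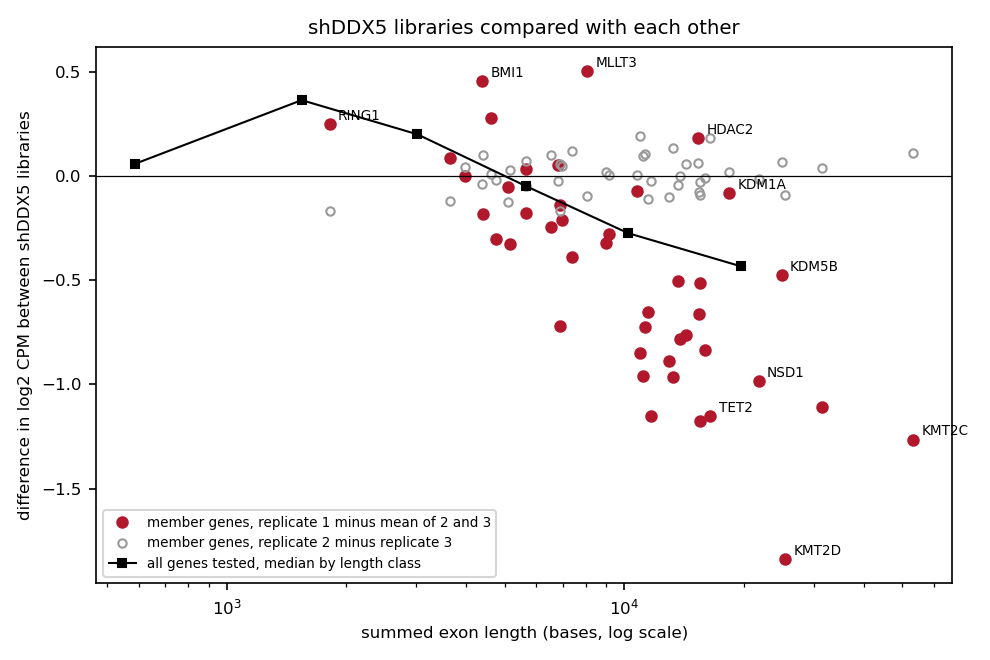
Difference in log2 CPM between shDDX5 libraries (vertical axis) against summed exon length in bases (horizontal axis, log scale). Red points are 43 member genes in replicate 1 minus the mean of replicates 2 and 3, open grey points the same genes in replicate 2 minus replicate 3, and black squares the medians of all genes tested in 6 length classes. KMT2D lay at -1.84 and MLLT3 at 0.50, the medians of all genes ran from 0.37 at 1000 to 2000 bases to -0.43 above 16000 bases, and replicates 2 and 3 stayed within 0.19 of each other.

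DDX5 knockdown lowered RNA of the DNA methylation reader UHRF1, the Polycomb genes BMI1, EZH2 and EED, the deacetylases HDAC1 and HDAC2, the maintenance methyltransferase DNMT1, the elongation scaffold AFF1 and KMT2A itself. Of 44 members 43 were tested, since TET1 did not pass the filter on low counts. With edgeR, 1 member rose, 19 fell and 23 were not called at an adjusted p under 0.05, and 7 of the 19 fell by at least 2-fold. Over all 14463 genes tested, 28.4% were called higher and 28.3% lower. The median log2 fold change was -0.34 over the members and -0.00 over all genes tested. Without shDDX5 replicate 1, 10 members were called higher and 26 lower, against a background of 35.7% higher and 35.7% lower among 14916 genes, and the members' median was -0.21. Among all genes of at least 10000 exon bases, 18.6% were called higher and 35.8% lower with all libraries, and of the 23 members of that length none rose and 8 fell.

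RX-5902 raised more members than it lowered. Its largest changes among the members were rises of the de novo DNA methyltransferases DNMT3A and DNMT3B, followed by the demethylase genes JMJD1C and KDM6B. With edgeR, 21 members rose, 12 fell and 10 were not called, where 32.2% of the 13941 genes tested were called higher and 31.9% lower. Among all genes of at least 10000 exon bases, 41.9% were called higher and 28.9% lower with RX-5902. Of the 23 members of that length, 13 rose and 6 fell. Only DNMT3A and DNMT3B reached 2-fold, and the median over the members was 0.09, against 0.01 over all genes tested. Standard errors of the members' log2 fold changes were 0.04 to 0.08 in the compound experiment and 0.07 to 0.40 in the knockdown experiment, so the compound experiment could call smaller changes. When the knockdown change was compared with the compound change in 1 fit of all 12 libraries, 2 members (MEN1 and HDAC3) had a higher change with the knockdown and 28 a lower one, where 24.1% of 15386 genes had a higher and 28.6% a lower change. Among all genes of at least 10000 exon bases, 17.5% had a higher and 41.4% a lower change. Of the 23 members of that length, 0 had a higher and 14 a lower change. The experiments differ in agent, time and culture, and these cannot be told apart in that comparison.

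**Figure D2:**
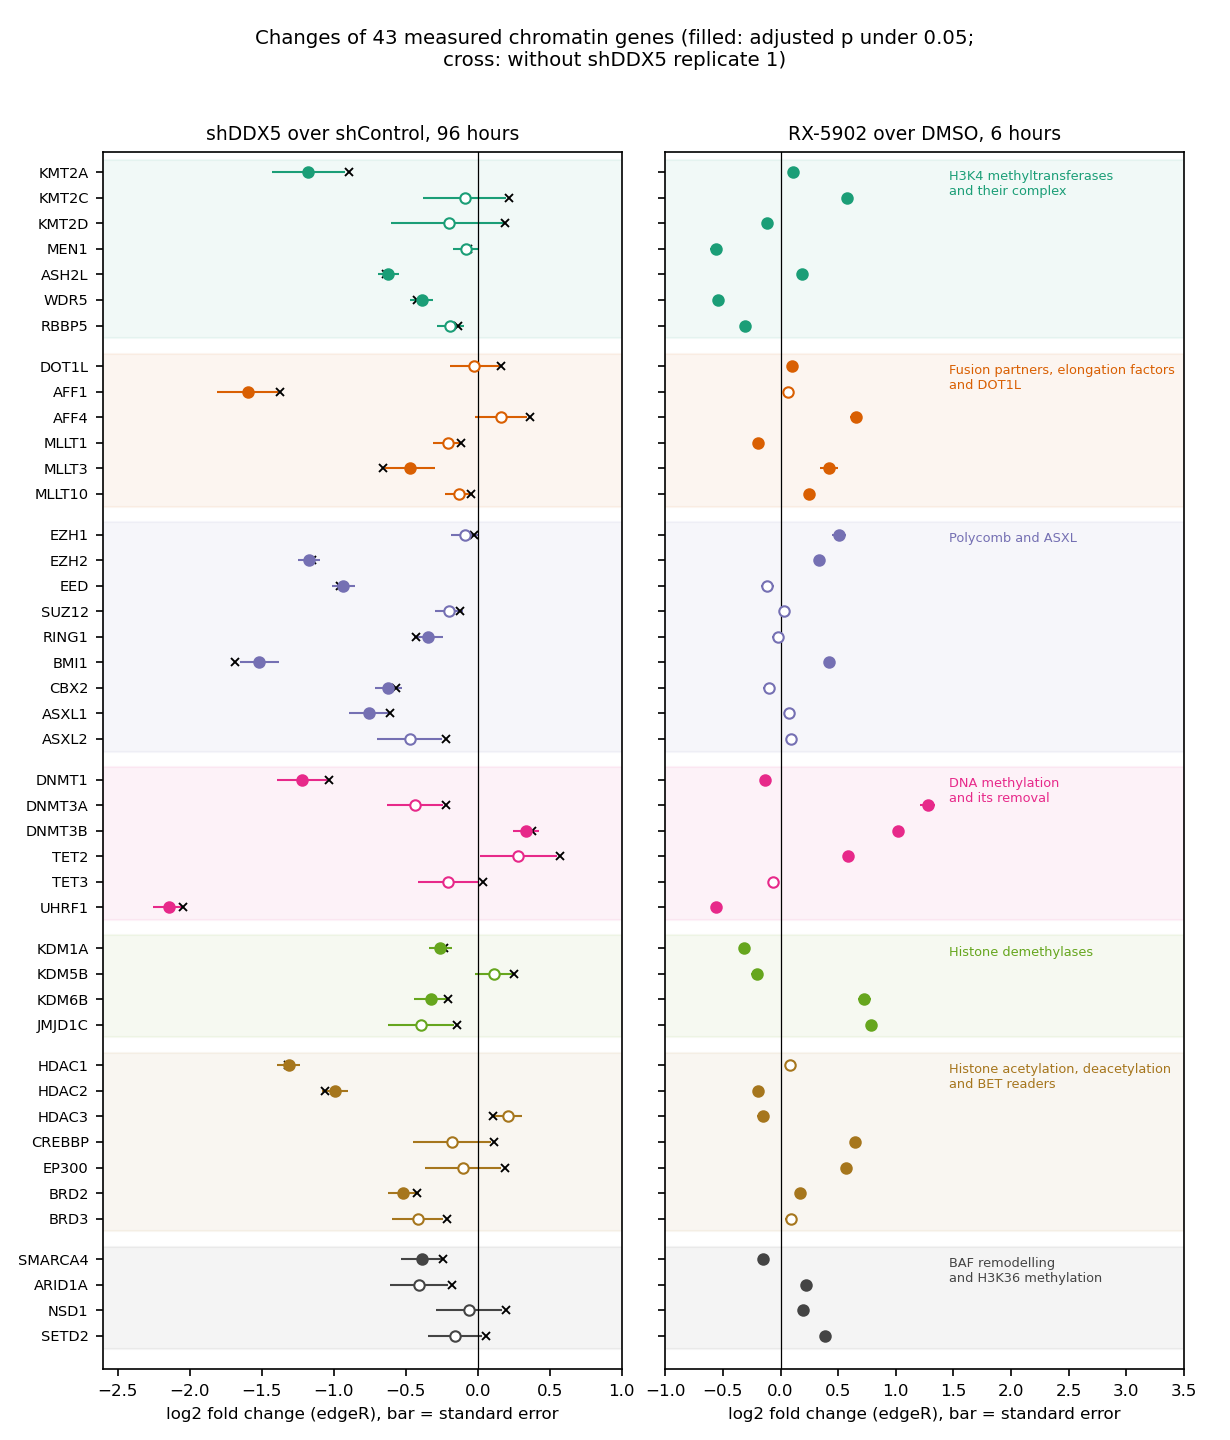
Log2 fold changes of 43 chromatin genes, grouped by role, for shDDX5 over shControl (left) and RX-5902 over DMSO (right). Circles are edgeR estimates with their standard errors, filled where the adjusted p was under 0.05, and crosses on the left give the estimate without shDDX5 replicate 1. UHRF1 lay lowest with the knockdown at -2.15, and DNMT3A highest with RX-5902 at 1.28.

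The promoters of the members with the smallest p are printed as context for genes that moved together: UHRF1, HDAC1 and EZH2 among those that fell with the knockdown, and DNMT3B and DNMT3A among those that rose with RX-5902. The sequences come from RefSeq on GRCh38.p14, are written 5′ to 3′ on the gene's strand, and cover up to 250 bases before the annotated start, leaving out bases that lie in annotated exons. Capitals mark matches, on either strand, to the E2F motif GCGGGAA or to the CCAAT box CCAAT. The windows are chr19:4909251-4909429 (plus strand) for UHRF1, chr1:32291833-32292082 (plus) for HDAC1, chr7:148884322-148884541 (minus) for EZH2, chr20:32779602-32779851 (plus) for DNMT3B and chr2:25342591-25342840 (minus) for DNMT3A. The DNMT3B and UHRF1 windows lie inside their genes as the deposited tables annotate them.
UHRF1: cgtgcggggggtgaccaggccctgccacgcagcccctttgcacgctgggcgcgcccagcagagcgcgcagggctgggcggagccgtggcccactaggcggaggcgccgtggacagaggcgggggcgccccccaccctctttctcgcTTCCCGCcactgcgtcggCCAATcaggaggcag
HDAC1: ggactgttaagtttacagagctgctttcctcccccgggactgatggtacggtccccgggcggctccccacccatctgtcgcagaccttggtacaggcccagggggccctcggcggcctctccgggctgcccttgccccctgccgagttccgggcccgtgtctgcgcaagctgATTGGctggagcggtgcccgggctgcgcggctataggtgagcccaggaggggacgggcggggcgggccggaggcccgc
EZH2: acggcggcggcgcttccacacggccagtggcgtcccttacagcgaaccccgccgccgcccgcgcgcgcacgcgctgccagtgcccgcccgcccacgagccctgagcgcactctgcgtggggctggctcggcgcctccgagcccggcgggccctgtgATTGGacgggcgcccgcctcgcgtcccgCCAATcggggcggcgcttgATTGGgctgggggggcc
DNMT3B: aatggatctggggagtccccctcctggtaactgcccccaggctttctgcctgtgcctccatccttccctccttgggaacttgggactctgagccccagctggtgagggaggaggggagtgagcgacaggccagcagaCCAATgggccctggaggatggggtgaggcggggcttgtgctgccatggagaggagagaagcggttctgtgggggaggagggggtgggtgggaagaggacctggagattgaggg
DNMT3A: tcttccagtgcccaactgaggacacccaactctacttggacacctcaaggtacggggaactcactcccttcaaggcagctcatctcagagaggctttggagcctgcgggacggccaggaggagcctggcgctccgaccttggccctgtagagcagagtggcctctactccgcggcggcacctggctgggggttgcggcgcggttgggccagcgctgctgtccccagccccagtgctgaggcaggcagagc

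Of the 44 members, 41 matched a promoter in the RefSeq table, and DOT1L, CBX2 and ASH2L did not. Over the full 250 bases before the start, the E2F motif was in 3 of the 41 (SUZ12, TET3 and UHRF1), where 5.56% of 27305 promoters held it. The CCAAT box was in 12 of the 41, where 33.0% of all promoters held it. UHRF1 held both motifs, EZH2 had 4 CCAAT matches of which 3 lie in the printed bases, and the DNMT3A window had no match. Such matches describe the letters only. No measurement of factor binding was used here.

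The KMT2A complex was lowered by the knockdown in KMT2A and its partners ASH2L and WDR5, whereas RX-5902 lowered MEN1, WDR5 and RBBP5. KMT2A (chr11:118436456-118526832, GRCh38) had 11.5, 25.2 and 24.5 CPM in shDDX5 replicates 1, 2 and 3, against 48.5, 43.4 and 46.7 CPM in shControl. Every shDDX5 library lay below every shControl library, replicate 1 by the most. The log2 fold change was -1.18 (SE 0.25, edgeR adjusted p = 0.00452), and -0.89 without replicate 1. With RX-5902, KMT2A had 75.7, 74.6 and 73.3 CPM, against 70.1, 70.0 and 66.9 CPM in DMSO. The groups did not overlap, but this rise of 0.11 on the log2 scale (SE 0.04, edgeR adjusted p = 0.0285) was called in only 3 of the 14 fits made with different settings or libraries left out. KMT2A shares 5755 of its 31469 exon bases with a gene on the same strand that had 1 count in the whole knockdown experiment.

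KMT2C and KMT2D, which place monomethyl marks on lysine 4 at enhancers, did not pass the test with the knockdown. KMT2D had 55.8, 194 and 206 CPM in shDDX5 replicates 1 to 3, against 173, 174 and 178 CPM in shControl. Replicates 2 and 3 lay above all 3 controls and replicate 1 far below them. The log2 fold change was -0.20 (SE 0.40, edgeR adjusted p = 0.688) with all libraries and 0.19 without replicate 1 (edgeR adjusted p = 0.000422). KMT2C likewise had -0.09 with all libraries (SE 0.29, edgeR adjusted p = 0.807) and 0.22 without replicate 1 (edgeR adjusted p = 0.000408). With RX-5902, KMT2C rose to 181, 175 and 180 CPM, against 118, 121 and 121 CPM in DMSO (log2 fold change 0.58, SE 0.04, edgeR adjusted p = 1.17e-14), and KMT2D fell by 0.12 (SE 0.04, edgeR adjusted p = 0.00640). KMT2C is known to have partial copies elsewhere in the genome, so its counts are uncertain.

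MEN1 encodes menin, the adaptor that tethers KMT2A and its fusions to chromatin. It had 43.4, 43.2 and 47.0 CPM in shDDX5, against 46.1, 50.8 and 44.7 CPM in shControl, and the groups overlapped (log2 fold change -0.08, SE 0.09, edgeR adjusted p = 0.448). With RX-5902 it had 39.9, 45.8 and 43.3 CPM, against 67.2, 62.3 and 60.8 CPM in DMSO. All treated libraries lay below all DMSO libraries, a 1.48-fold fall (log2 fold change -0.56, SE 0.05, edgeR adjusted p = 6.81e-11). The knockdown change of MEN1 was higher than the compound change by 0.46 (SE 0.11, edgeR adjusted p = 0.00225).

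WDR5, a scaffold of the shared core, fell in both experiments. It had 87.7, 79.3 and 86.0 CPM in shDDX5, against 107, 114 and 111 CPM in shControl (log2 fold change -0.39, SE 0.08, edgeR adjusted p = 0.00365). With the compound it had 88.2, 89.5 and 86.7 CPM in RX-5902, against 131, 130 and 123 CPM in DMSO (log2 fold change -0.54, SE 0.04, edgeR adjusted p = 2.90e-13). Neither experiment had overlapping groups. ASH2L, another core subunit, fell by 0.62 with the knockdown (SE 0.07, edgeR adjusted p = 0.000213; -0.63 without replicate 1) and rose by 0.19 with RX-5902 (SE 0.04, edgeR adjusted p = 9.55e-05). It shares 338 exon bases with STAR on the opposite strand, and the strand setting of the counting is not given in the sources used here. RBBP5, the third core subunit, had a log2 fold change of -0.19 with the knockdown (SE 0.10, edgeR adjusted p = 0.126; -0.13 without replicate 1) and fell by 0.31 with RX-5902 (SE 0.05, edgeR adjusted p = 4.18e-07).

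Among 10 other genes of these complexes, 1 rose and 4 fell with the knockdown (4 and 5 without shDDX5 replicate 1), and 4 rose and 2 fell with RX-5902. The shares over all genes given above, 28.4% higher and 28.3% lower with the knockdown (35.7% each way without replicate 1) and 32.2% and 31.9% with RX-5902, stand beside this and every later count of a group. PSIP1, whose product LEDGF joins menin in holding KMT2A on chromatin, fell to 17.9 CPM in shDDX5, against 53.8 CPM in shControl (log2 fold change -1.58, SE 0.08, edgeR adjusted p = 4.52e-06). NCOA6, a subunit of the KMT2C and KMT2D complexes, averaged 119 CPM in RX-5902 and 87.8 CPM in DMSO (log2 fold change 0.44, SE 0.04, edgeR adjusted p = 7.16e-11).

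**Figure D3:**
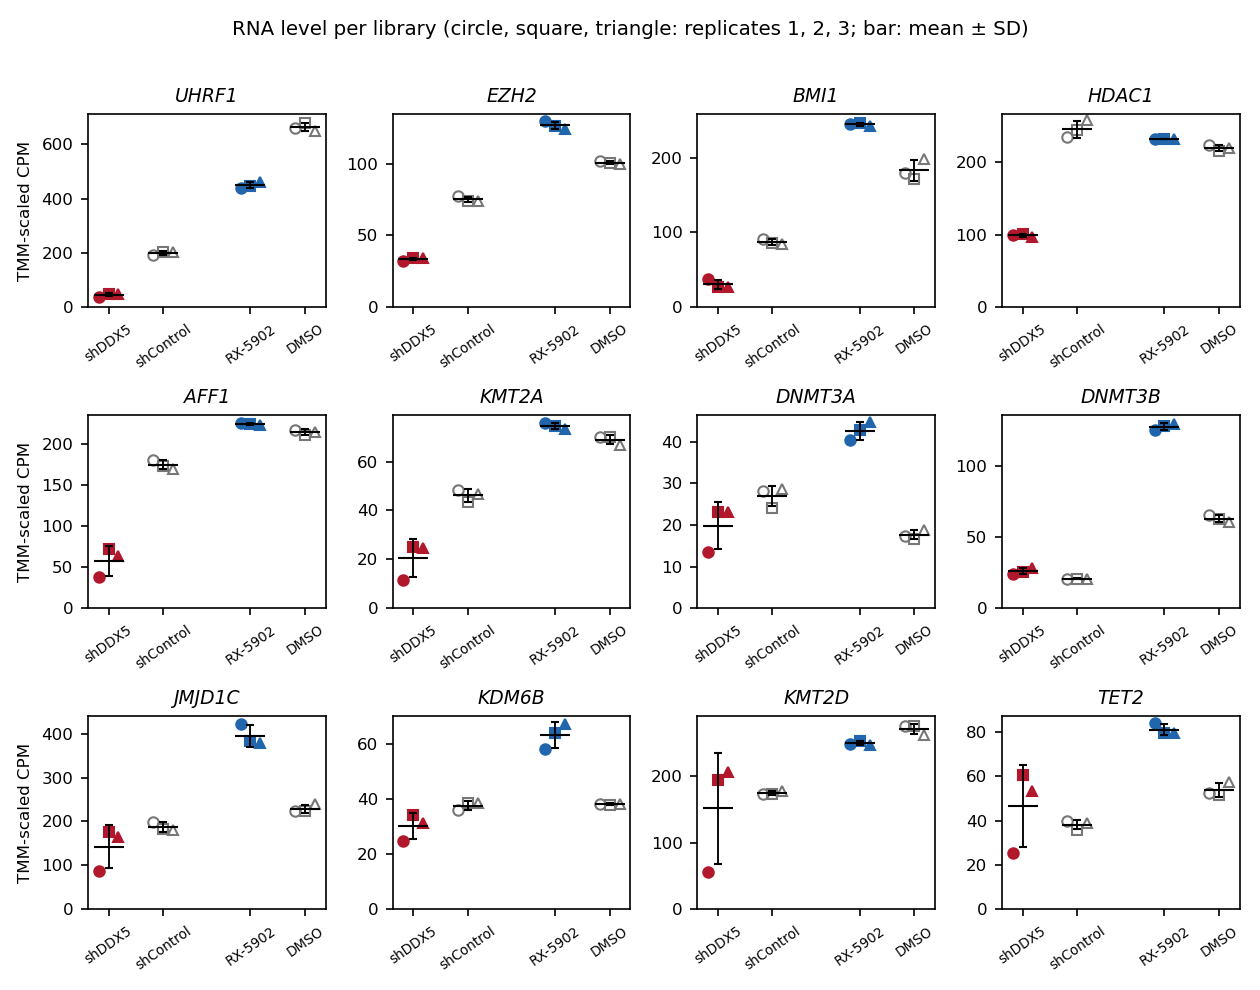
TMM-scaled CPM in every library for 12 member genes, with shDDX5 and shControl on the left of each panel and RX-5902 and DMSO on the right. Symbols mark replicates 1, 2 and 3, bars give the mean and SD of 3 libraries, and every vertical axis starts at 0. UHRF1, EZH2, HDAC1 and BMI1 were low in all 3 shDDX5 libraries, while KMT2D and TET2 were low in replicate 1 alone, at 55.8 and 25.5 CPM.

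Among fusion partners and elongation genes, the knockdown lowered AFF1 and, less firmly, MLLT3, and RX-5902 raised AFF4. AFF1 is a scaffold of the super elongation complex, which carries the kinase that releases paused RNA polymerase. AFF1 had 37.6, 72.6 and 63.5 CPM in shDDX5 replicates 1 to 3, against 181, 174 and 170 CPM in shControl. All 3 shDDX5 libraries were far below the controls. The fall was 3.03-fold (log2 fold change -1.60, SE 0.21, edgeR adjusted p = 0.000352; -1.37 without replicate 1). With RX-5902 AFF1 had 226, 225 and 224 CPM, against 218, 212 and 216 CPM in DMSO (log2 fold change 0.06, SE 0.04, edgeR adjusted p = 0.134), and the difference between the experiments was -1.68 (SE 0.21, edgeR adjusted p = 1.39e-05).

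AFF4, the other scaffold measured, had 50.2, 86.1 and 79.8 CPM in shDDX5, against 68.1, 61.6 and 63.5 CPM in shControl. Replicate 1 lay below the controls and replicates 2 and 3 above them, so the log2 fold change was 0.16 with all libraries (SE 0.18, edgeR adjusted p = 0.477) and 0.36 without replicate 1 (edgeR adjusted p = 8.38e-07). RX-5902 raised it to 64.5, 63.1 and 62.2 CPM, against 39.7, 37.6 and 43.2 CPM in DMSO (log2 fold change 0.66, SE 0.05, edgeR adjusted p = 8.54e-13).

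MLLT3, the fusion partner in this line and a reader of acylated histones, was the least abundant tested member per kilobase of exon in shControl and the next to least in shDDX5. It had 7.27, 4.92 and 5.27 CPM in shDDX5 replicates 1 to 3, against 7.47, 7.54 and 9.17 CPM in shControl. The groups did not overlap, but replicate 1 lay close to the controls, and the fall of 0.47 (SE 0.17, edgeR adjusted p = 0.0475) was called in only 3 of 14 fits. Without replicate 1 the log2 fold change was -0.66. In RX-5902 it had 19.1, 16.2 and 16.2 CPM, against 12.5, 12.8 and 13.2 CPM in DMSO, a rise of 0.42 (SE 0.08, edgeR adjusted p = 2.83e-05).

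The other 3 members of this group moved by less. MLLT1, a close relative of MLLT3, had a log2 fold change of -0.21 with the knockdown (SE 0.10, edgeR adjusted p = 0.112). Without replicate 1 MLLT1 had -0.12 and was called (edgeR adjusted p = 0.0311). It fell by 0.20 with RX-5902 (SE 0.04, edgeR adjusted p = 0.000152). MLLT10, a cofactor of DOT1L, had -0.13 with the knockdown (SE 0.10, edgeR adjusted p = 0.272) and rose by 0.25 with RX-5902 (SE 0.04, edgeR adjusted p = 6.02e-06). DOT1L had -0.02 with the knockdown (SE 0.17, edgeR adjusted p = 0.919). Without replicate 1 DOT1L had 0.16 and was called (edgeR adjusted p = 0.00664). It had 0.10 with RX-5902 (SE 0.04, edgeR adjusted p = 0.0313), a call that stood in 3 of 14 fits. DOT1L shares 529 exon bases with PLEKHJ1 on the opposite strand, a gene with 10819 counts in the knockdown experiment. Of 11 other elongation and fusion partner genes tested, 3 rose and 2 fell with the knockdown (3 and 4 without replicate 1), and 3 rose and 3 fell with RX-5902. AFF3, a relative of AFF1, fell in both, to 5.42 CPM in shDDX5, against 12.6 CPM in shControl, and to 54.6 CPM in RX-5902, against 80.2 CPM in DMSO (log2 fold changes -1.21 and -0.55, edgeR adjusted p = 0.000128 and 3.75e-12). HEXIM1, an inhibitor of the elongation kinase, rose by 0.66 with RX-5902 (SE 0.05, edgeR adjusted p = 8.63e-14).

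Polycomb genes fell with the knockdown in 6 of 9 members and rose with RX-5902 in 3 of 9, with no member of this group called in the opposite direction in either experiment. Over all genes tested, 28.3% were called lower with the knockdown and 32.2% higher with RX-5902, so the count of rises with RX-5902 is close to its background. Without shDDX5 replicate 1, 8 of the 9 were called lower with the knockdown, where 35.7% of all genes were. EZH2, the main methyltransferase of Polycomb repressive complex 2 (chr7:148807257-148884321), had 32.4, 34.1 and 33.9 CPM in shDDX5, against 77.4, 74.2 and 74.2 CPM in shControl. The replicates were tight and the groups far apart, a 2.25-fold fall (log2 fold change -1.17, SE 0.08, edgeR adjusted p = 1.12e-05). Its log2 fold change without replicate 1 was -1.15, and the gene has 10774 exon bases. In RX-5902 EZH2 had 130, 126 and 125 CPM, against 102, 100.5 and 99.9 CPM in DMSO (log2 fold change 0.33, SE 0.04, edgeR adjusted p = 9.73e-09). EED, which binds trimethylated lysine 27 within that complex, had 13.63, 13.02 and 13.21 CPM in shDDX5, against 25.7, 24.9 and 25.6 CPM in shControl (log2 fold change -0.93, SE 0.08, edgeR adjusted p = 3.64e-05). With RX-5902 EED had a log2 fold change of -0.12 (SE 0.06, edgeR adjusted p = 0.0822).

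SUZ12, the scaffold of the complex, had -0.20 with the knockdown (SE 0.10, edgeR adjusted p = 0.114). Without replicate 1 SUZ12 had -0.12 and was called (edgeR adjusted p = 0.0359). It had 0.03 with RX-5902 (SE 0.05, edgeR adjusted p = 0.602). SUZ12 is known to have a pseudogene copy, and its counts are uncertain. EZH1, the alternative methyltransferase, had 23.6, 27.7 and 26.8 CPM in shDDX5, against 25.8, 27.3 and 29.9 CPM in shControl, with overlapping groups (log2 fold change -0.09, SE 0.10, edgeR adjusted p = 0.479). It rose with RX-5902 to 40.4, 37.7 and 41.6 CPM, against 29.9, 27.0 and 27.3 CPM in DMSO (log2 fold change 0.51, SE 0.06, edgeR adjusted p = 4.73e-09). Annotated exons summed to 6988 bases for EZH1 and 10774 bases for EZH2. Per kilobase of exon, EZH1 and EZH2 averaged 3.73 ± 0.31 and 3.11 ± 0.09 CPM in shDDX5, against 3.96 ± 0.30 and 6.99 ± 0.17 CPM in shControl (SD, n = 3). On that scale EZH2 stood above EZH1 in shControl and below it in shDDX5. Before division by length, EZH2 was above EZH1 in every library of both groups, so their order in shDDX5 depends on the length used. Whether the changes of the paralogs differ was not tested.

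BMI1, the partner of the ubiquitin ligases of Polycomb repressive complex 1, had the largest difference between the experiments among the members. It had 37.3, 26.8 and 27.5 CPM in shDDX5 replicates 1 to 3, against 91.9, 85.9 and 84.3 CPM in shControl. Here replicate 1 was the highest of the shDDX5 libraries, and all 3 lay far below the controls; BMI1 has 4395 exon bases. The fall was 2.86-fold (log2 fold change -1.52, SE 0.13, edgeR adjusted p = 4.35e-05; -1.69 without replicate 1). In RX-5902 BMI1 had 246, 247 and 243 CPM, against 180, 171 and 199 CPM in DMSO, all above (log2 fold change 0.42, SE 0.04, edgeR adjusted p = 3.45e-10). BMI1 shares 1000 exon bases with the readthrough gene COMMD3-BMI1, which had no count in the knockdown experiment and 13 counts in the compound experiment.

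RING1, a ubiquitin ligase of the same complex, fell by 0.34 with the knockdown (SE 0.10, edgeR adjusted p = 0.0191), a call that stood in 10 of 14 fits. CBX2, a reader of methylated lysine 27, fell by 0.62 (SE 0.10, edgeR adjusted p = 0.000828; -0.57 without replicate 1). Neither was called with RX-5902, at -0.02 and -0.10. ASXL1, a partner of the BAP1 deubiquitinase that reverses the mark of complex 1 and a gene often mutated in myeloid disease, had 46.2, 64.5 and 66.5 CPM in shDDX5, against 95.8, 102 and 101 CPM in shControl. All 3 shDDX5 libraries lay below the controls (log2 fold change -0.76, SE 0.14, edgeR adjusted p = 0.00188; -0.61 without replicate 1). Its paralog ASXL2 had -0.47 (SE 0.23, edgeR adjusted p = 0.109), and -0.22 without replicate 1, where it was called (edgeR adjusted p = 0.000571). With RX-5902 both lay under 0.10. Of 25 other Polycomb genes tested, 4 rose and 6 fell with the knockdown (8 and 8 without replicate 1), and 9 rose and 4 fell with RX-5902. AEBP2 and RBBP7, both known in Polycomb repressive complex 2, fell by 0.92 and 0.81 with the knockdown (edgeR adjusted p = 0.000122 and 0.000101). PCGF5, a relative of BMI1, rose by 0.56 with it (SE 0.08, edgeR adjusted p = 0.000635). With RX-5902, PHF19 rose by 0.72 (SE 0.05, edgeR adjusted p = 2.80e-15).

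Among the 44 members, DNA methylation genes held the largest changes in both experiments. UHRF1 binds hemimethylated DNA after replication and brings DNMT1 to it (chr19:4903080-4962154). UHRF1 had 38.6, 49.0 and 47.9 CPM in shDDX5, against 193, 205 and 203 CPM in shControl. Its fall was 4.43-fold (log2 fold change -2.15, SE 0.11, edgeR adjusted p = 4.52e-06; -2.05 without replicate 1). In RX-5902 it had 440, 446 and 461 CPM, against 661, 679 and 649 CPM in DMSO (log2 fold change -0.56, SE 0.04, edgeR adjusted p = 7.34e-15). The groups were separate in both experiments, and the knockdown change was lower by 1.60 (log2 difference -1.60, SE 0.11, edgeR adjusted p = 3.10e-08). DNMT1, the enzyme that copies methylation to the new strand, had 132, 204 and 216 CPM in shDDX5, against 403, 434 and 452 CPM in shControl. Replicate 1 was lowest, and all 3 lay below the controls (log2 fold change -1.22, SE 0.17, edgeR adjusted p = 0.000520; -1.04 without replicate 1). With RX-5902 DNMT1 fell by 0.13 (SE 0.04, edgeR adjusted p = 0.00203).

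The de novo methyltransferases rose with RX-5902. DNMT3A, recurrently mutated in acute myeloid leukemia, had 40.5, 42.8 and 44.7 CPM in RX-5902, against 17.3, 16.7 and 18.8 CPM in DMSO, a 2.42-fold rise (log2 fold change 1.28, SE 0.06, edgeR adjusted p = 4.06e-18). DNMT3B had 125, 128 and 129 CPM in RX-5902, against 65.3, 62.5 and 60.3 CPM in DMSO, a 2.03-fold rise (log2 fold change 1.02, SE 0.04, edgeR adjusted p = 6.46e-20). Every treated library of either gene was far above every DMSO library. With the knockdown, DNMT3A had 13.4, 23.1 and 23.1 CPM in shDDX5, against 28.1, 24.1 and 28.6 CPM in shControl. Replicates 2 and 3 lay just under the lowest control and replicate 1 further down (log2 fold change -0.44, SE 0.20, edgeR adjusted p = 0.0889). Without replicate 1 the log2 fold change of DNMT3A was -0.22 and was called (edgeR adjusted p = 0.0111). DNMT3B was the 1 member called higher with the knockdown, at 24.2, 25.2 and 28.2 CPM in shDDX5, against 20.1, 20.8 and 20.7 CPM in shControl (log2 fold change 0.33, SE 0.09, edgeR adjusted p = 0.0127), and this call stood in 11 of 14 fits.

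TET enzymes oxidise methylated cytosine as a step towards its removal. TET2 had 25.5, 60.4 and 53.3 CPM in shDDX5 replicates 1 to 3, against 39.8, 35.8 and 38.9 CPM in shControl. Replicates 2 and 3 were above all controls and replicate 1 below them, which gave 0.28 with all libraries (SE 0.27, edgeR adjusted p = 0.399) and 0.57 without replicate 1 (edgeR adjusted p = 2.26e-09). In RX-5902 TET2 had 84.0, 79.4 and 79.6 CPM, against 52.5, 51.7 and 57.5 CPM in DMSO (log2 fold change 0.59, SE 0.05, edgeR adjusted p = 1.67e-12). TET3 was not called in either experiment, at -0.20 with the knockdown (0.03 without replicate 1) and -0.06 with RX-5902. TET1 had 0 counts in 11 of 12 libraries and 1 count in RX-5902 replicate 1, and a count of 0 allows up to 3 counts per library, which is 0.147 to 0.170 CPM before TMM scaling.

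Of 10 other genes of DNA methylation tested, 1 rose and 4 fell with the knockdown (1 and 7 without replicate 1), and 2 rose and 4 fell with RX-5902. HELLS, a remodeller needed for DNA methylation, fell to 12.2 CPM in shDDX5, against 53.3 CPM in shControl (log2 fold change -2.13, SE 0.11, edgeR adjusted p = 4.15e-06). IDH1, which makes the cofactor of TET enzymes, averaged 638 CPM in shDDX5 and 205 CPM in shControl (log2 fold change 1.64, SE 0.09, edgeR adjusted p = 4.94e-06), and 73.4 CPM in RX-5902, against 107 CPM in DMSO (log2 fold change -0.55, SE 0.04, edgeR adjusted p = 2.43e-13).

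UHRF1, DNMT1, EZH2 and HELLS are known to be high in dividing cells, and proliferation markers moved with the knockdown. All 12 of 12 such markers fell with it (median log2 fold change -2.10), and they summed to 560 to 638 CPM in shDDX5, against 2335 to 2397 CPM in shControl. MKI67 averaged 84.8 CPM in shDDX5 and 452 CPM in shControl. With RX-5902, 6 of the 12 rose and 4 fell, and they summed to 4830 to 5204 CPM, against 4077 to 4113 CPM in DMSO. MKI67 and TOP2A rose, by 0.92 and 0.33, and MCM2 fell by 0.81. Myeloid maturation markers also moved: 7 rose and 3 fell of 11 tested with the knockdown, 3 rose and 6 fell of 10 with RX-5902. Their sum was 14940 to 17326 CPM in shDDX5, against 4966 to 5135 CPM in shControl, mostly from LYZ. Without shDDX5 replicate 1, 12 proliferation markers fell, and 7 maturation markers rose and 3 fell. The part of cell division and maturation in the chromatin gene changes was not tested. In these bulk libraries, fewer cells of one kind and less RNA per cell cannot be told apart.

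Histone demethylase genes were led by KDM6B and JMJD1C, which rose with RX-5902. KDM6B removes methyl groups from lysine 27 of histone H3, the Polycomb mark. It had 58.3, 64.2 and 67.5 CPM in RX-5902, against 38.4, 37.9 and 38.4 CPM in DMSO (log2 fold change 0.73, SE 0.05, edgeR adjusted p = 1.23e-13). With the knockdown it had 25.0, 34.1 and 31.4 CPM in shDDX5, against 35.9, 38.7 and 38.5 CPM in shControl. No shDDX5 library reached the controls, but the fall of 0.32 (SE 0.12, edgeR adjusted p = 0.0489; -0.21 without replicate 1) was called in only 7 of 14 fits. JMJD1C, a jumonji-domain protein with a known role in leukemia cell survival, had 423, 383 and 378 CPM in RX-5902, against 223, 225 and 240 CPM in DMSO, a 1.72-fold rise (log2 fold change 0.78, SE 0.04, edgeR adjusted p = 3.87e-17). It had 87.6, 176 and 165 CPM in shDDX5, against 200, 183 and 180 CPM in shControl. Replicates 2 and 3 lay just under the controls, and replicate 1 was low (log2 fold change -0.39, SE 0.23, edgeR adjusted p = 0.174). Without replicate 1 the log2 fold change of JMJD1C was -0.14 and was called (edgeR adjusted p = 0.0127).

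KDM1A, also called LSD1, which removes methyl groups from lysine 4, fell in both experiments, by 0.26 with the knockdown (SE 0.08, edgeR adjusted p = 0.0215, called in 8 of 14 fits) and by 0.32 with RX-5902 (SE 0.04, edgeR adjusted p = 1.05e-08). The difference between the experiments was 0.04 (SE 0.08, edgeR adjusted p = 0.716) and was not called. With the length correction the knockdown change of KDM1A was -0.00 (edgeR adjusted p = 0.983) and the difference was called, at 0.39 (edgeR adjusted p = 0.00942). KDM5B, which acts on trimethylated lysine 4, had 0.11 with the knockdown (SE 0.13, edgeR adjusted p = 0.490). Without replicate 1 KDM5B had 0.25 and was called (edgeR adjusted p = 0.000362). It fell by 0.20 with RX-5902 (SE 0.05, edgeR adjusted p = 0.000513). Of 12 other demethylase genes, 1 rose and 2 fell with the knockdown, where 28.4% of all genes were called higher and 28.3% lower, but 5 rose and 5 fell without replicate 1, where 35.7% were called each way. With RX-5902, 9 of the 12 rose and none fell, where 32.2% of all genes were called higher and 31.9% lower. KDM3A, which acts on lysine 9, rose with the knockdown to 92.7 CPM in shDDX5, against 53.8 CPM in shControl (log2 fold change 0.78, SE 0.13, edgeR adjusted p = 0.000985). KDM4B and KDM4A, which act on methylated lysine 9, rose by 0.69 and 0.64 with RX-5902 (edgeR adjusted p = 3.50e-14 and 1.51e-12).

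Among acetylation genes the knockdown lowered HDAC1 and HDAC2, while RX-5902 raised CREBBP and EP300. HDAC1 and HDAC2 are paired catalytic subunits of the NuRD, SIN3 and CoREST repressor complexes. HDAC1 (chr1:32292083-32333635) had 99.1, 100.3 and 97.4 CPM in shDDX5, against 234, 244 and 259 CPM in shControl. The shDDX5 replicates were almost equal, with a 2.48-fold fall (log2 fold change -1.31, SE 0.08, edgeR adjusted p = 8.30e-06; -1.32 without replicate 1). HDAC2, with 15333 exon bases, had 144, 129 and 124 CPM in shDDX5, against 269, 252 and 267 CPM in shControl. Its replicate 1 was the highest of the 3 shDDX5 libraries (log2 fold change -0.99, SE 0.09, edgeR adjusted p = 4.53e-05, and -1.06 without replicate 1). With RX-5902, HDAC1 had 232, 233 and 233 CPM, against 224, 216 and 219 CPM in DMSO, and was not called (log2 fold change 0.08, SE 0.04, edgeR adjusted p = 0.0532). HDAC2 fell by 0.19 with RX-5902 (SE 0.04, edgeR adjusted p = 0.000337). HDAC3, a class I histone deacetylase, had 0.21 with the knockdown (SE 0.10, edgeR adjusted p = 0.105) and fell by 0.16 with RX-5902 (SE 0.05, edgeR adjusted p = 0.00523), and its change was higher with the knockdown by 0.35 (SE 0.12, edgeR adjusted p = 0.0245).

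CREBBP and EP300 are paralogous acetyltransferases that place the lysine 27 acetyl mark of active enhancers. CREBBP had 176, 179 and 184 CPM in RX-5902, against 118, 114 and 112 CPM in DMSO (log2 fold change 0.64, SE 0.04, edgeR adjusted p = 1.23e-15). EP300 had 290, 278 and 286 CPM in RX-5902, against 191, 195 and 190.3 CPM in DMSO (log2 fold change 0.57, SE 0.04, edgeR adjusted p = 6.24e-15). For both genes every treated library was above every DMSO library. With the knockdown, replicate 1 parted from replicates 2 and 3 for both genes. EP300 had 73.8, 163 and 165 CPM in shDDX5 replicates 1 to 3, against 140, 144 and 148 CPM in shControl. Replicate 1 was far below and replicates 2 and 3 above the controls. The log2 fold changes were -0.10 for EP300 and -0.18 for CREBBP with all libraries (edgeR adjusted p = 0.761 and 0.595), and 0.19 and 0.12 without replicate 1 (edgeR adjusted p = 0.000620 and 0.0339).

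BRD2, a bromodomain reader of acetylated histones, had 234, 294 and 290 CPM in shDDX5, against 381, 385 and 404 CPM in shControl (log2 fold change -0.52, SE 0.11, edgeR adjusted p = 0.00358; -0.42 without replicate 1). It had 556, 537 and 552 CPM in RX-5902, against 489, 486 and 490 CPM in DMSO (log2 fold change 0.17, SE 0.04, edgeR adjusted p = 0.000156). The groups were separate in both, in opposite directions. With all libraries BRD3 was not called in either experiment, at -0.42 (SE 0.18, edgeR adjusted p = 0.0775) and 0.09 (SE 0.04, edgeR adjusted p = 0.0853). Without replicate 1 its knockdown change was -0.22 and was called (edgeR adjusted p = 0.00219). BRD3 shares 1283 exon bases with BRD3OS on the opposite strand. Of 25 other acetylation genes, 7 rose and 6 fell with the knockdown (10 and 7 without replicate 1), and of 24 tested with RX-5902, 13 rose and 3 fell. HDAC9 rose with the knockdown by 1.32 (SE 0.12, edgeR adjusted p = 4.74e-05), and the acetyltransferase gene KAT2B fell by 1.59 (SE 0.21, edgeR adjusted p = 0.000315) at levels of 1.25 CPM in shDDX5 and 3.79 CPM in shControl. With RX-5902, HDAC5 averaged 84.4 CPM, against 36.3 CPM in DMSO (log2 fold change 1.22, SE 0.05, edgeR adjusted p = 1.97e-20), and KAT2A fell by 0.79 (SE 0.04, edgeR adjusted p = 9.38e-17).

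The remodelling and lysine 36 methylation members lay between -0.41 and 0.39 on the log2 scale in both experiments. SMARCA4, an ATPase of the BAF remodelling complex, had 156, 215 and 229 CPM in shDDX5, against 253, 266 and 267 CPM in shControl (log2 fold change -0.39, SE 0.14, edgeR adjusted p = 0.0426; -0.24 without replicate 1), a call that stood in 8 of 14 fits, and fell by 0.15 with RX-5902 (SE 0.04, edgeR adjusted p = 0.00134). ARID1A, a subunit of the same complex, had -0.41 with the knockdown (SE 0.20, edgeR adjusted p = 0.118). Without replicate 1 ARID1A had -0.18 and was called (edgeR adjusted p = 0.000777). It rose by 0.22 with RX-5902 (SE 0.04, edgeR adjusted p = 2.25e-05). SETD2, which trimethylates lysine 36, had 191, 190 and 176 CPM in RX-5902, against 140, 141 and 145 CPM in DMSO (log2 fold change 0.39, SE 0.04, edgeR adjusted p = 4.01e-10). SETD2 was not called with the knockdown, at -0.16 (SE 0.19, edgeR adjusted p = 0.503; 0.05 without replicate 1). NSD1, which dimethylates the same residue, had -0.06 with the knockdown (SE 0.23, edgeR adjusted p = 0.838). Without replicate 1 NSD1 had 0.20 and was called (edgeR adjusted p = 0.00168). It rose by 0.19 with RX-5902 (SE 0.04, edgeR adjusted p = 0.000238). Of 28 other genes of this group, 1 rose and 16 fell with the knockdown, where 28.4% of all genes were called higher and 28.3% lower. Without replicate 1, 5 rose and 21 fell. With RX-5902, 14 rose and 7 fell, where 32.2% of all genes were called higher and 31.9% lower. SS18 and ACTL6A, both BAF subunits, fell by 1.18 and 1.11 with the knockdown (edgeR adjusted p = 1.64e-05 and 2.00e-05), and ACTL6A also fell by 0.48 with RX-5902 (SE 0.04, edgeR adjusted p = 2.56e-12), whereas DPF2 rose by 0.60 with the knockdown (SE 0.07, edgeR adjusted p = 0.000259).

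Side by side, 7 members fell with the knockdown and rose with RX-5902: KMT2A, ASH2L, MLLT3, EZH2, BMI1, KDM6B and BRD2. Another 6 fell in both (DNMT1, UHRF1, WDR5, HDAC2, KDM1A and SMARCA4), and DNMT3B rose in both. A further 6 fell with the knockdown alone by these calls (AFF1, EED, CBX2, RING1, ASXL1 and HDAC1), and for each of them the knockdown change was called lower than the compound change. For RING1 that difference was called in 10 of 19 fits. With all libraries, calls with RX-5902 alone were 13 rises and 6 falls, and 4 tested members (SUZ12, ASXL2, TET3 and BRD3) were called in neither. These classes changed without shDDX5 replicate 1. SUZ12, ASXL2 and BRD3 were then called lower with the knockdown, as were MLLT1, DNMT3A, JMJD1C and ARID1A. KMT2C, DOT1L, AFF4, TET2, CREBBP, EP300, NSD1, KMT2D and KDM5B were then called higher with it. Of these, KMT2D and KDM5B fell with RX-5902. Of those called with RX-5902 alone, KMT2C, KMT2D, RBBP5, DOT1L, MLLT1, TET2, KDM5B and NSD1 had no called difference between the experiments. With all libraries, the calls for these genes do not show that the 2 changes differ. Without shDDX5 replicate 1 the difference was called for KMT2C (-0.37, edgeR adjusted p = 4.21e-06), KMT2D (0.30, edgeR adjusted p = 2.30e-05) and KDM5B (0.45, edgeR adjusted p = 3.46e-06). It stayed uncalled there for RBBP5, DOT1L, MLLT1, TET2 and NSD1. The largest differences were those of BMI1 (-1.95, SE 0.15), DNMT3A (-1.73, SE 0.21), AFF1 (-1.68, SE 0.21) and UHRF1 (-1.60, SE 0.11), with edgeR adjusted p between 3.10e-08 and 1.39e-05.

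**Figure D4:**
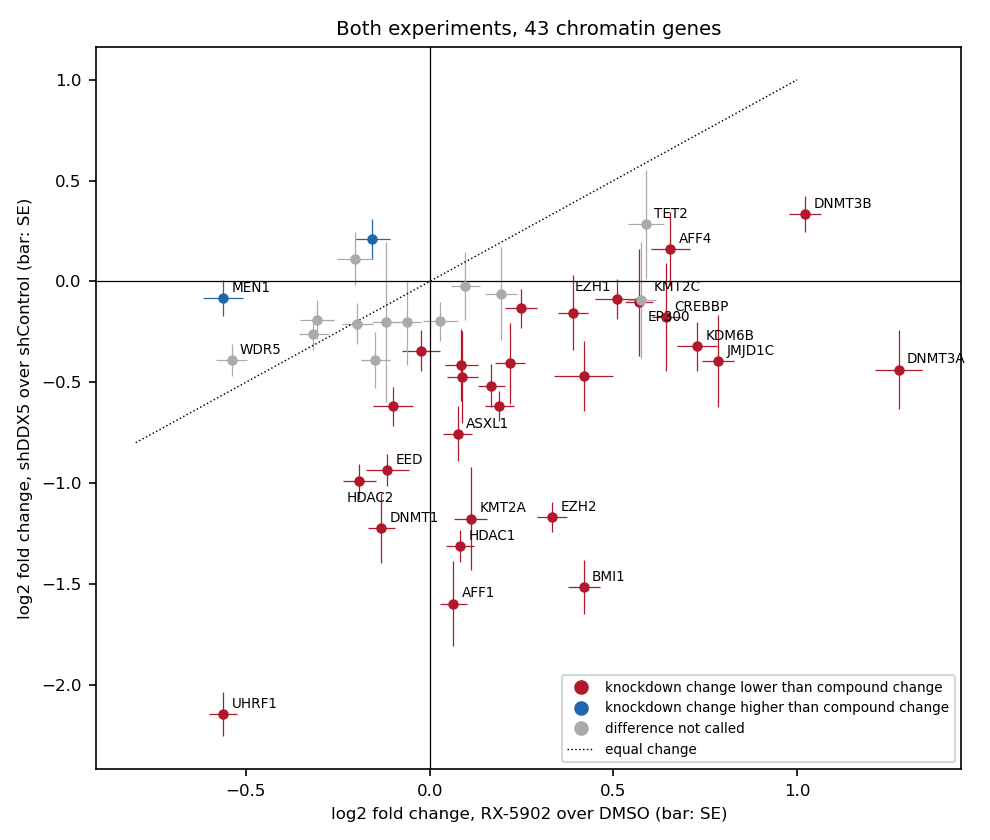
Log2 fold change of shDDX5 over shControl (vertical axis) against that of RX-5902 over DMSO (horizontal axis) for 43 chromatin genes, with standard errors as bars and a dotted line of equal change. Red points had a lower and blue points a higher change with the knockdown in the test of the difference, and grey points were not called. Of the 43, 28 are red and 2, MEN1 and HDAC3, are blue; BMI1 lay at -1.52 and 0.42, and DNMT3A at -0.44 and 1.28.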

How the data were processed

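RNA of 12 libraries from MOLM-14 cells was extracted with Trizol and column clean-up and made into libraries with an MGIEasy kit, per the labels' protocols. The deposited values are raw read counts per gene, 1 table per experiment, which the authors had not normalized. Per the submitters' processing notes, the build was GRCh38.p13 and the tools were DESeq2 1.46.0, R 4.4.2, Subread 2.0.3 with featureCounts, Picard 2.8.0, STAR 2.7.9a and Trim Galore 0.6.7, with no role stated. The annotation release, strand setting and treatment of duplicate and multi-mapping reads are not given in the sources used here. Each table held 61906 genes, and the line of 1 gene, broken by 2 extra lines, was rejoined. Symbols were matched for all but 103 genes. Coordinates and exon lengths are those of the deposited tables, counted from 1, and bases of overlapping exons were counted from them.

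Each experiment was fitted on its 6 libraries with edgeR 4.0.16 in R 4.3.3 (default expression filter, TMM factors, two-sided quasi-likelihood F test), and a gene counted as called when its adjusted p (Benjamini-Hochberg, across every gene in the fit) was under 0.05. The knockdown and compound changes were compared in 1 fit of all 12 libraries with 4 group means. CPM values are TMM-scaled within an experiment and should not be compared between experiments, and standard errors were derived from the F statistic. Depth was 17603589 to 20367575 counts per library, and counting floors cover counting error only. The p-values measure the spread between the labelled biological replicates. The fits were tested on simulated data. At a fold of 1.5, 43.3% of changed genes were recovered with the knockdown, 94.0% with RX-5902 and 32.8% for the difference. At a fold of 2 the shares were 97.0%, 100% and 85.1%. A member not called with the knockdown may thus have a change of that smaller size. No simulated library was given a shift with exon length, so these shares may not hold for long members. Members with large standard errors, up to 0.40 with the knockdown, may have larger changes that were not called. No 2 replicates agreed within sampling noise. No pairing by replicate number was seen: same-numbered libraries deviated with correlations of -0.07 to 0.03 in the knockdown experiment and -0.04 to 0.02 in the compound experiment. With 3 libraries per group, and shDDX5 replicate 1 far from the others, these correlations cannot exclude a pairing.

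The members, the 127 other chromatin genes in 7 lists and the 8 marker lists were chosen with earlier results of these data known. Members were all named; of the other chromatin genes, up to 2 per list, direction and experiment with the smallest p were eligible, of the marker lists up to 3, and DDX5 as the check of the knockdown. The marker genes named beyond these (those at 0 counts, and those that make up most of a sum) were chosen after their values were seen. Alternatives were DESeq2 1.42.0 (its size factors, and its Wald test), no filter on low counts, a test against a fold of 1.2, a replicate block, a correction for exon length by lowess per library, both together, all 12 libraries in 1 fit, and leaving out each library in turn. No protein sequences and no genome sequence beyond RefSeq promoter windows were used here.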

Additional observations from a re-analysis of the deposited data

Results flagged for a closer look

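For 7 members, the change was called in opposite directions in the 2 experiments and the difference between the changes was itself called. The difference, knockdown change minus compound change on the log2 scale, was -1.95 for BMI1 (SE 0.15, edgeR adjusted p = 1.54e-07), -1.52 for EZH2 (SE 0.08, edgeR adjusted p = 2.55e-09), -1.31 for KMT2A (SE 0.25, edgeR adjusted p = 0.000527), -1.07 for KDM6B (SE 0.13, edgeR adjusted p = 9.19e-06), -0.91 for MLLT3 (SE 0.19, edgeR adjusted p = 0.00129), -0.83 for ASH2L (SE 0.08, edgeR adjusted p = 1.14e-06) and -0.70 for BRD2 (SE 0.11, edgeR adjusted p = 7.08e-05). These 7 differences were called in all 19 fits made across settings and left-out libraries, the test against a fold of 1.2 not counted. For 3 of the 7, the call within 1 experiment was less steady: the RX-5902 rise of KMT2A and the knockdown fall of MLLT3 were each called in 3 of 14 fits, and the knockdown fall of KDM6B in 7 of 14. The agent, the time (96 hours against 6 hours) and the experiment differ together and cannot be told apart.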

How the results depend on the processing

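Alternatives were run for every member and for the counts over all members and over all other chromatin genes; counts by role and of markers were recomputed only without shDDX5 replicate 1. With a test against a fold of 1.2, the counts of members were 0 higher with the knockdown (where 1 was called against a fold of 1), 3 lower with RX-5902 and 1 with a higher change in the knockdown; those of other chromatin genes were 10 higher with the knockdown, and 24 higher and 9 lower with RX-5902. With the length correction, 5 members and 31 other chromatin genes were higher with the knockdown, and 4 members had a higher change in the knockdown. In 1 fit of all 12 libraries, 2 members were higher with the knockdown, and 5 members and 12 other chromatin genes were lower with RX-5902. Leaving out each library in turn gave 0 to 10 members and 10 to 36 other chromatin genes higher with the knockdown, and 1 to 4 members with a higher change in it. The highest of these, 10, 36 and 4, came without shDDX5 replicate 1. Without shControl replicate 1, 2 or 3 the DNMT3B rise was lost.

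The replicate block gave 17 members lower and 1 higher with the knockdown, 12 lower and 19 higher with RX-5902, and 1 with a higher and 29 with a lower change in the knockdown. With the replicate block and the length correction together, 2 members were higher with the knockdown, and 4 had a higher change in it. Members lower with the knockdown numbered 13 to 26 under all settings, and 14 of the 19 were called lower in all 14 fits other than the test against a fold of 1.2, as were 17 of the 21 higher and 5 of the 12 lower with RX-5902. For the difference between the experiments, 19 of the 28 lower and 1 of the 2 higher calls stood in all 19 such fits.

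Without shDDX5 replicate 1, 6 members not called with all libraries turned in direction and were then called; TET3 and SETD2 turned as well, to 0.03 and 0.05, and were not called. Leaving out 1 library at a time, their knockdown log2 fold changes ran from -0.31 to 0.22 for KMT2C, -0.28 to 0.19 for EP300, -0.48 to 0.19 for KMT2D, -0.21 to 0.20 for NSD1, -0.16 to 0.16 for DOT1L and -0.36 to 0.12 for CREBBP, the highest of each without replicate 1. The difference of KMT2D ran from -0.37 to 0.30 in the same way. The cause was not tested. Knockdown changes of many long members are limited by shDDX5 replicate 1, and small changes with RX-5902 by the threshold of fold.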

Other observations

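Of 12 genes known as direct targets of KMT2A fusions, 2 rose and 9 fell with the knockdown (median log2 fold change -1.27), where 28.4% of all genes were called higher and 28.3% lower. Without shDDX5 replicate 1, 2 rose and 10 fell. With RX-5902, 9 rose and 3 fell (median 0.28), where 32.2% of all genes were called higher and 31.9% lower. BCL2 and FLT3 fell in both experiments, by 0.87 and 0.51 with the knockdown and by 0.96 and 0.20 with RX-5902, and CDK6 rose in both, by 0.58 with the knockdown and by 0.27 with RX-5902. One of the 12, JMJD1C, is also among the 44 genes above. MEIS1, a homeobox cofactor of HOXA9, averaged 3.01 CPM in shDDX5 and 20.02 CPM in shControl (log2 fold change -2.73), and 57.3 CPM in RX-5902, against 43.8 CPM in DMSO (log2 fold change 0.39). HOXA9 averaged 10.1 CPM in shDDX5 and 31.1 CPM in shControl, and 60.99 CPM in RX-5902, against 44.1 CPM in DMSO. MYB rose with the knockdown and fell with RX-5902, with 415 CPM in shDDX5, against 312 CPM in shControl, and 299 CPM in RX-5902, against 509 CPM in DMSO. The sum over the 12 genes was 1143 to 1461 CPM in shDDX5, against 1523 to 1596 CPM in shControl, and 2238 to 2366 CPM in RX-5902, against 2234 to 2299 CPM in DMSO, where the last 2 ranges overlap.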
